A study of Mus musculus with 6 samples.

Results

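The genes described here are 10 receptor tyrosine kinase genes measured in mouse lung tumors: Met, Axl, Mertk, Igf1r, Insr, Fgfr1, Fgfr2, Fgfr3, Pdgfra and Pdgfrb. They were taken by gene name from the non-control probes of the array, where they stood among 36870 gene names, and all 10 were found. The tumors came from C57BL/6J mice that carried Ror1f/f (a floxed Ror1 gene), CAG-CreER (a tamoxifen-inducible Cre recombinase under the broadly active CAG promoter) and SPC-hEGFRdel746-750 (a human EGFR with an activating deletion under the surfactant protein C promoter of alveolar epithelium). One set of mice was given tamoxifen and the other corn oil, over a period of 4 weeks that began at 16 weeks of age, and the lung tumor was collected at an age of 20 weeks. Both sets carried all of these alleles, so by the labels the groups differ in the agent alone, and an effect of tamoxifen itself cannot be told apart from one of Cre activity. There were 3 tamoxifen and 3 oil samples. Tamoxifen sample 1 shared its arrays with oil sample 1, and likewise for samples 2 and 3, and each such couple was hybridised on a pair of arrays with the dyes exchanged, giving 6 arrays in all.

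Receptor tyrosine kinases are membrane proteins with a ligand-binding part outside the cell and a kinase inside it. Ligand binding activates paired receptors, which then phosphorylate each other and recruit adaptors that feed the Ras-MAPK and PI3K-Akt routes. In human lung cancers driven by mutant EGFR, MET and AXL are known as receptors that can keep these routes active when EGFR is inhibited. Ror1, the gene targeted in these mice, encodes a receptor-like member of the same superfamily. In lung, Met, Fgfr2 and Fgfr3 are known mainly from epithelium, Pdgfra and Pdgfrb from mesenchyme and pericytes, and Mertk from macrophages.

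The array read the 10 genes through 25 probes, each 60 bases long. Met, Axl, Igf1r, Insr, Fgfr1, Fgfr2, Fgfr3 and Pdgfra, 8 genes, had several probes, and Mertk and Pdgfrb, 2 genes, had a single one. The brightest probe stood for a gene. An exon annotation of the build of the files, mm9, was not used here, and the position alone is given for each probe. The probes below are shown because they read a coding part of their gene, as told from an open reading frame over the whole probe and from the known protein, and because they give a second reading of 6 of the genes, taken at another place of the transcript than the brightest probe. They are written 5′ to 3′ on the strand of the gene, in lower case, with capitals for the codons of a kinase motif named after them.
Met, chr6:17442312-17442371, plus strand: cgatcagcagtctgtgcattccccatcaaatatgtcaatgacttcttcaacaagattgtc
Axl, chr7:26545782-26545841, minus strand: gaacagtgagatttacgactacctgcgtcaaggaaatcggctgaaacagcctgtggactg
Fgfr2, chr7:137385966-137386025, minus strand: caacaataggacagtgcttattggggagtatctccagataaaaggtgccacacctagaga
Fgfr3, chr5:34077856-34078090, plus strand: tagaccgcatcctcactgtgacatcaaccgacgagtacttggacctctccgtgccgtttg
Insr, chr8:3159473-3159532, minus strand: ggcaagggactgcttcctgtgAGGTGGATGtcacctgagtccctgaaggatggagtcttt
Fgfr1, chr8:26682852-26682911, plus strand: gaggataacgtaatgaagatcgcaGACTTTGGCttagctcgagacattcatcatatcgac
The Met and Fgfr2 probes read the part outside the cell, and the Axl, Insr and Fgfr1 probes read the kinase. The capitals in the Fgfr1 probe are the codons of the DFG motif, which binds the magnesium ion of the kinase, and those in the Insr probe are codons for arginine, tryptophan and methionine of the activation segment. The Fgfr3 probe spans 235 bases of the genome with 60 bases of sequence, so it crosses a gap in the genomic match.

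Of the 25 probes, 16 carried the scanner's flag for a signal well above background in all 12 channel readings, 7 in some and 2 in none. The brightest probe of each of the 10 genes exceeded background clearly in each of its 6 readings with tamoxifen RNA and its 6 with oil RNA, so all 10 were tested. Across the series, the share of probes flagged well above background ranged from 51.8 to 58.8% over the channels of the arrays. The fit covered 20475 genes, and the number of arrays limited its precision, with a median SE of 0.098 on the log2 scale. The 7 of 7 alveolar type 2 markers were well above background, among them Sftpc, the surfactant gene whose promoter drives the transgene. The labels do not say that the numbered samples are separate animals, so p-values measure only the spread between these samples. In bulk tumor RNA, fewer cells of a type and less RNA per cell cannot be told apart. Ror1 had 9.35, 9.30 and 9.17 log2 signal in the tamoxifen samples, against 8.76, 8.86 and 8.99 in the oil samples. Its log2 ratio was 0.40 ± 0.21 (SD, n = 3 couples; limma adjusted p = 0.69), higher in tamoxifen on all 6 arrays. Which Ror1 exon is floxed is not given in the labels, so this probe does not check the deletion.

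None of the 10 receptors passed the test of tamoxifen over oil in limma at an adjusted p of 0.05, as 0 of 10 members were called, where 0% of the 20475 tested genes were called. The members' adjusted p ran from 0.69 to 0.97, and the lowest of any gene on the array was 0.41. At an unadjusted p of 0.05, 1436 genes passed. Mean log2 ratios lay above 0 for 2 members and below 0 for 8, between -0.31 (Met) and 0.24 (Pdgfrb). Their median was -0.05, beside -0.004 for all tested genes. That lean came from couple 1, in which 8 of 10 members lay below 0 with a median of -0.21. In couple 2, 3 members lay below 0 with a median of 0.07, and in couple 3, 5 members with a median of 0.02. Without couple 1 the median of the members was 0.016, and it was -0.125 without couple 2 and -0.114 without couple 3. In size the members' ratios had a median of 0.060, beside 0.092 for all tested genes, while their SD over couples had a median of 0.24, beside 0.17.

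**Figure D1:**
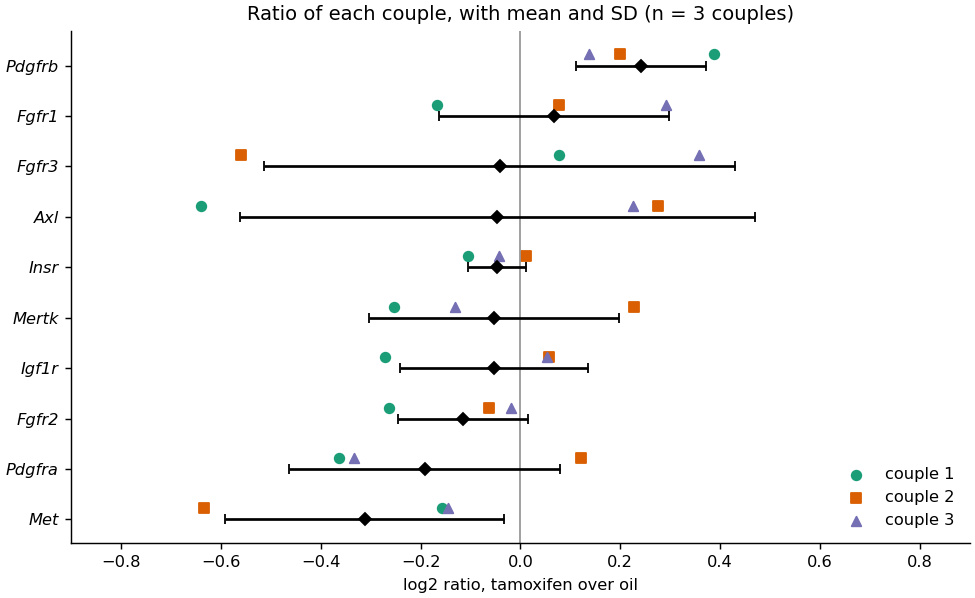
Log2 ratio of tamoxifen over oil (x axis) for each of the 10 receptor genes (y axis), ordered by mean. Coloured symbols are the 3 couples, black diamonds the mean and bars the SD. Pdgfrb lies to the right of 0 in all 3 couples, Met and Fgfr2 lie to the left of 0 in all 3, and the other 7 have couples on both sides.

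The sign of the ratio was the same in all 3 couples for 3 receptors. Pdgfrb was higher in tamoxifen in every couple, 1 of 10 members, where 13.8% of all tested genes did so. Met and Fgfr2 were lower in every couple, 2 of 10 members, where 16.4% of all tested genes did so. On all 6 arrays, 1 member was higher (Pdgfrb) and 1 was lower (Met), with backgrounds of 6.04% and 7.21%. A single gene is a large step in a list of 10, and these shares lie near those of all genes. The 3 tamoxifen and the 3 oil samples did not overlap for 1 of 10 members (Fgfr2), against 12.3% of all tested genes.

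Met, the receptor of hepatocyte growth factor, had a log2 signal of 11.23, 10.79 and 11.54 in tamoxifen samples 1, 2 and 3, against 11.39, 11.42 and 11.68 in oil samples 1, 2 and 3. Each tamoxifen sample lay under the oil sample of its couple, but tamoxifen sample 3 lay above oil samples 1 and 2, so the groups overlapped. The log2 ratios of the couples were -0.16, -0.63 and -0.14, with a mean of -0.31 ± 0.28 (SD, n = 3; limma adjusted p = 0.69). The arrays with tamoxifen in Cy5 gave -0.09, -0.57 and -0.10 for couples 1, 2 and 3, and those with tamoxifen in Cy3 gave -0.23, -0.70 and -0.19. Both dye orientations thus placed Met lower in tamoxifen and couple 2 farthest from 0. The per-gene 95% interval ran from -0.65 to 0.03. Couple 2 set the size of this value: without it the mean was -0.15. The extracellular probe of Met, printed above, gave -0.23, -0.49 and -0.03 and so put the couples' lowest value in the same place. The 5 epithelial markers (Epcam, Cdh1, Nkx2-1, Krt8 and Krt18), all tested and 4 of them below 0 in the mean, also had their lowest couple mean there, at -0.14, -0.50 and -0.05 for couples 1, 2 and 3. Summed on the linear signal scale, they ranged from 65440 to 99885 in tamoxifen samples and from 100184 to 135847 in oil samples. Krt8 and Krt18, the brightest of them, made up most of each sum. In couple 2 Krt8 stood at -1.07, Krt18 at -1.08, Cdh1 at -0.54 and Nkx2-1 at -0.14. Epcam went the other way, at 0.46, 0.33 and 0.06 in couples 1, 2 and 3. By the median, couple 2 was also lowest for the fibroblast (-0.31), alveolar type 2 (-0.33), and pericyte and smooth muscle markers (-0.12). The macrophage and endothelial markers were lowest in couple 1, at -0.75 and -0.16. Fgfr3 was lowest in couple 2 as well, at -0.56, and Fgfr2 was not. The part of the epithelial markers in the Met values was not tested. Hgf, the ligand, was near background, with 4 of 6 tamoxifen and 5 of 6 oil readings well above it, and had a log2 ratio of -0.06 ± 0.17 (SD, n = 3; limma adjusted p = 0.91).

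**Figure D2:**
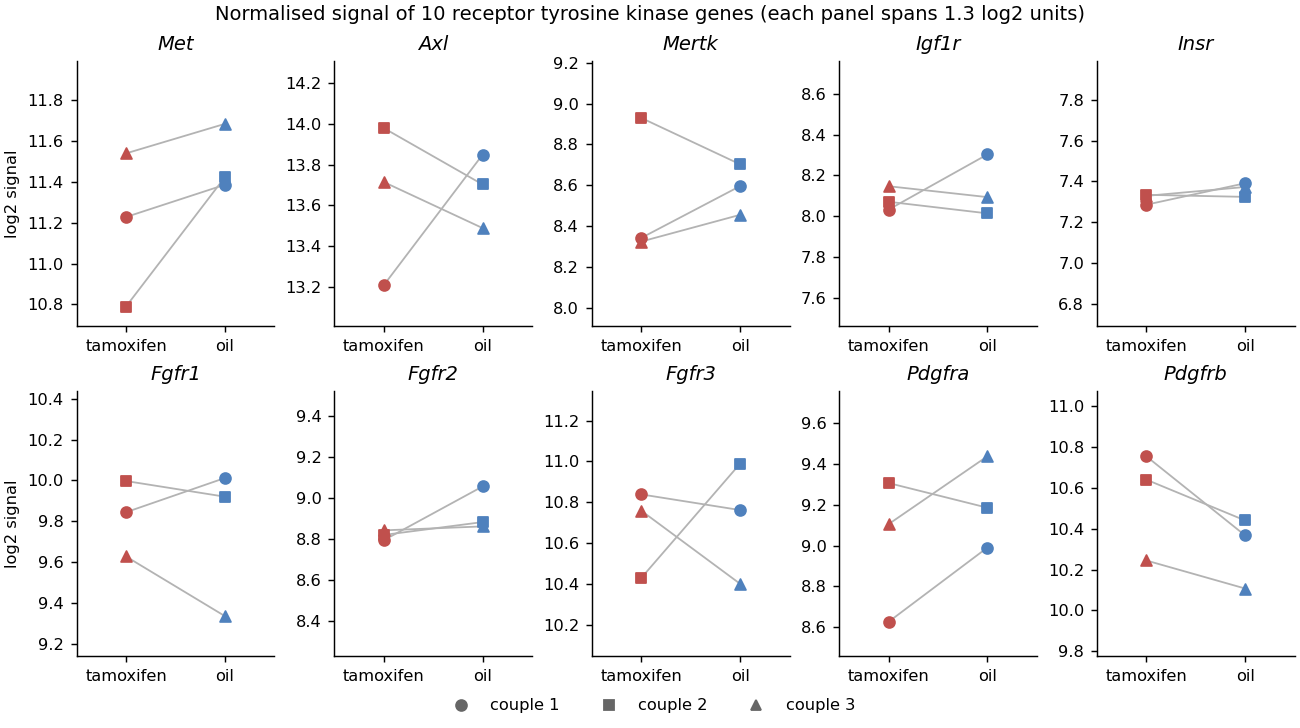
Normalised log2 signal (y axis) of the 10 receptor genes in tamoxifen samples (red, left) and oil samples (blue, right). Each symbol is 1 sample, grey lines join the samples of a couple, and every panel spans the same 1.3 log2 units. Met has 3 lines that run up toward oil and Pdgfrb 3 that run down, while the lines of Axl and Fgfr3 cross.

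Axl and Mertk belong to the TAM receptors, which bind Gas6 and take part in the clearance of dying cells. Axl had a log2 signal of 13.21, 13.98 and 13.72 in tamoxifen samples 1, 2 and 3, against 13.85, 13.70 and 13.49 in the oil samples. Tamoxifen sample 1 was the lowest of the 6 and tamoxifen sample 2 the highest, so the tamoxifen group spanned the whole oil group. The couples gave log2 ratios of -0.64, 0.28 and 0.23, a mean of -0.05 ± 0.52 (SD, n = 3; limma adjusted p = 0.97) with a 95% interval of -0.59 to 0.50. This SD was larger than that of 93.5% of tested genes. Leaving out couple 1 turned the Axl mean to 0.25, and median centring in place of loess to 0.03. The kinase probe of Axl printed above repeated the signs with smaller sizes, at -0.33, 0.14 and 0.14.

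Mertk, the TAM receptor best known from macrophages, had 8.34, 8.93 and 8.32 log2 signal in the tamoxifen samples, against 8.60, 8.70 and 8.46 in the oil samples. Tamoxifen sample 2 was the highest of the 6 and the other tamoxifen samples the lowest. Its log2 ratios were -0.25, 0.23 and -0.13, a mean of -0.05 ± 0.25 (SD, n = 3; limma adjusted p = 0.93), and without couple 1 the mean was 0.05. The 7 macrophage markers, all tested and all 7 below 0 in the mean, had couple means of the same signs, at -1.05, 0.45 and -0.64. The widest was Marco with -2.05, 2.07 and -3.01. The medians of the list were -0.75, 0.15 and -0.09, as the mean of couple 3 rested mostly on Marco and on Fabp4 at -1.37. Marco, Fabp4, Mrc1, Cd68 and Msr1 shared the signs of Mertk. Adgre1 (-0.37, -0.32 and 0.02) and Itgax (-0.58, 0.25 and 0.29) did not. Axl, at 0.23 in couple 3, lay on the other side of 0 from the list there. Pdgfra (-0.36, 0.12 and -0.33) and Insr (-0.11, 0.01 and -0.04) also had the signs of the list, so these were not particular to Mertk. The summed signal of the macrophage markers ranged from 12808 to 38198 in tamoxifen samples and from 21892 to 29523 in oil samples. Tamoxifen sample 2 held the highest macrophage sum and tamoxifen sample 1 the lowest. The part of these cells in the Mertk and Axl values was not tested. Of the TAM ligands, Gas6 had a log2 ratio of -0.10 ± 0.64 (couples -0.34, -0.58 and 0.62; limma adjusted p = 0.94) and Pros1 one of 0.06 ± 0.22 (SD, n = 3; limma adjusted p = 0.91).

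Igf1r and Insr, the receptors of insulin-like growth factors and of insulin, showed small differences. Igf1r had 8.03, 8.07 and 8.15 log2 signal in the tamoxifen samples, against 8.30, 8.01 and 8.09 in the oil samples. Oil sample 1 was the highest of the 6 and the other 5 lay close together. The couples gave -0.27, 0.06 and 0.05, a mean of -0.05 ± 0.19 (SD, n = 3; limma adjusted p = 0.92), which was 0.06 without couple 1 and 0.03 on the arrays with tamoxifen in Cy3 alone. The other Igf1r probe well above background near the brightest one gave -0.18, 0.03 and 0.07, and the one farther upstream on the gene's strand gave -0.50, -0.09 and 0.07. All of them had couple 1 lowest. Insr had 7.29, 7.33 and 7.33 log2 signal in the tamoxifen samples, against 7.39, 7.32 and 7.37 in the oil samples, with the groups overlapping. Its mean log2 ratio was -0.05 ± 0.06 (SD, n = 3; limma adjusted p = 0.90), with a 95% interval of -0.25 to 0.16. The SD of Insr was larger than that of only 10.6% of tested genes, so of the 10 receptors its couples lay closest together. On the arrays with tamoxifen in Cy5 alone the Insr mean was 0.02. The kinase probe of Insr printed above was dim, with 4 of 6 readings well above background in each group, and gave -0.15, 0.02 and -0.003. Igf1, the ligand of Igf1r, had a log2 ratio of -0.21 ± 0.29 (couples -0.54, -0.03 and -0.05; limma adjusted p = 0.74), and one of -0.04 without couple 1. Igf2, Ins1 and Ins2 were not above background by the rule of the test.

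The fibroblast growth factor receptors differed in how their couples behaved. Fgfr1, known from mesenchyme and many tumors, had 9.84, 9.997 and 9.63 log2 signal in the tamoxifen samples, against 10.01, 9.92 and 9.34 in the oil samples. Couple 3 was the lowest in both groups, which overlapped. Its log2 ratios were -0.17, 0.08 and 0.29, a mean of 0.07 ± 0.23 (SD, n = 3; limma adjusted p = 0.91). That mean was -0.05 without couple 3 and -0.04 on the arrays with tamoxifen in Cy3 alone. The kinase probe of Fgfr1 was dim, with 3 of 6 tamoxifen and 3 of 6 oil readings well above background. It gave 0.08, -0.02 and 0.02, so it shared the sign of the brightest probe only in couple 3.

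Fgfr2, the receptor of Fgf7 and Fgf10 that acts in lung epithelium, had 8.79, 8.82 and 8.84 log2 signal in the tamoxifen samples, against 9.06, 8.88 and 8.86 in the oil samples. All 3 tamoxifen samples lay under all 3 oil samples, by a narrow gap, with oil sample 1 apart from the other 5. The log2 ratios were -0.26, -0.06 and -0.02, a mean of -0.12 ± 0.13 (SD, n = 3; limma adjusted p = 0.79), and 5 of 6 arrays gave a lower value in tamoxifen. The extracellular probe of Fgfr2 gave -0.15, -0.07 and -0.06. Fgf7 had a log2 ratio of -0.16 ± 0.09 (SD, n = 3; limma adjusted p = 0.71). It was lower in tamoxifen on 6 of 6 arrays, as were 7.21% of all tested genes. Its groups did not overlap, as for 12.3% of all tested genes. The signal of Fgf7 was dim, from 6.49 to 6.86 log2 units over the samples. Fgf10 was not tested, being too dim.

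Fgfr3 had 10.84, 10.43 and 10.76 log2 signal in the tamoxifen samples, against 10.76, 10.99 and 10.40 in the oil samples. Oil samples 2 and 3 were the highest and the lowest of the 6, so the tamoxifen group lay within the oil group. On the arrays with tamoxifen in Cy5 the couples gave -0.01, -0.66 and 0.27, and with tamoxifen in Cy3 0.16, -0.47 and 0.44. The order of the couples was the same under both dyes. Averaged, the couples gave 0.08, -0.56 and 0.36, a mean of -0.04 ± 0.47 (SD, n = 3; limma adjusted p = 0.97), with an SD above that of 92.2% of tested genes. Without couple 2 the Fgfr3 mean was 0.22, and it was 0.05 on the arrays with tamoxifen in Cy3 alone. Its second probe, printed above, gave 0.08, -0.21 and -0.005, smaller in size than the brightest probe in couples 2 and 3. The 7 alveolar type 2 markers had couple means of -0.24, -0.39 and -0.51, all 7 below 0, and their summed signal ranged from 573571 to 574959 in tamoxifen samples and from 692807 to 719465 in oil samples. The mean of couple 3 held Napsa at -2.01, and the medians of the list were -0.21, -0.33 and -0.30. The list was thus lowest in couple 3 by the mean and, narrowly, in couple 2 by the median. Fgfr3 was lowest in couple 2, but in couples 1 and 3 it lay above 0 while the list lay below. Fgfr2 was lowest in couple 1, where the list was least low. The part of these cells in the Fgfr2 and Fgfr3 values was not tested.

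The other fibroblast growth factors tested varied among themselves, and none passed the test. Fgf18 had a log2 ratio of 0.47 ± 0.25 (SD, n = 3; limma adjusted p = 0.69). It was higher in tamoxifen on 6 of 6 arrays, as were 6.04% of all tested genes, and its groups did not overlap either. Fgf9, known from lung epithelium and mesothelium, gave 1.34, 0.20 and -1.20 in couples 1, 2 and 3, a mean of 0.11 ± 1.27 (SD, n = 3; limma adjusted p = 0.97). Fgf1, Fgf2 and Fgf20 had means of 0.16, -0.19 and -0.02.

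Pdgfra, which binds platelet-derived growth factors in fibroblasts, had 8.63, 9.31 and 9.10 log2 signal in the tamoxifen samples, against 8.99, 9.19 and 9.44 in the oil samples. Tamoxifen sample 1 was the lowest and oil sample 3 the highest, and the groups overlapped. The couples gave -0.36, 0.12 and -0.33, a mean of -0.19 ± 0.27 (SD, n = 3; limma adjusted p = 0.75) with a 95% interval of -0.52 to 0.14. A dim second probe of Pdgfra gave -0.10, 0.11 and -0.24. The fibroblast markers, 6 of 7 tested with Dpt not above background, had couple means of -0.05, 0.02 and -0.24 and a summed signal of 13429 to 22924 in tamoxifen samples and 15947 to 24882 in oil samples. The medians of the list were -0.11, -0.31 and -0.20, so which of its couples was lowest depended on the summary: Dcn alone stood at 1.71 in couple 2, where Col1a1, Col1a2 and Col3a1 stood at -0.38, -0.59 and -0.60. By the mean, the fibroblast list had the signs of Pdgfra, and so did the macrophage list, at -1.05, 0.45 and -0.64. The part of fibroblasts or macrophages in the Pdgfra values was not tested.

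Pdgfrb, the receptor of Pdgfb that marks pericytes and activated fibroblasts, had 10.76, 10.64 and 10.24 log2 signal in the tamoxifen samples, against 10.37, 10.44 and 10.11 in the oil samples. Each tamoxifen sample lay above the oil sample of its couple, yet tamoxifen sample 3 lay under oil samples 1 and 2. The log2 ratios were 0.39, 0.20 and 0.14, a mean of 0.24 ± 0.13 (SD, n = 3; limma adjusted p = 0.69), which is 1.18-fold. Arrays with tamoxifen in Cy5 gave 0.43, 0.18 and 0.12, and those with tamoxifen in Cy3 gave 0.35, 0.22 and 0.16, so both dye orientations ordered the couples alike. The per-gene 95% interval of 0.01 to 0.48 is not adjusted for the 20475 genes tested. The 7 pericyte and smooth muscle markers, all tested, had couple means of -0.11, -0.13 and 0.02, and their summed signal was 7732 to 8467 in tamoxifen samples and 7808 to 9483 in oil samples. That list lay below 0 in couples 1 and 2, where Pdgfrb lay above 0, and its part was not tested. The 5 endothelial markers, all tested, lay above 0 in the mean, with couple means of -0.12, 0.16 and 0.33 and a summed signal of 4954 to 5676 in tamoxifen samples and 4044 to 5242 in oil samples. Among the ligands, Pdgfa had a log2 ratio of 0.28 ± 0.45 (couples 0.02, 0.03 and 0.80), or 0.02 without couple 3, Pdgfd one of 0.10 ± 0.09, Pdgfb one of -0.02 ± 0.39 and Pdgfc one of -0.01 ± 0.26 (SD, n = 3 each; limma adjusted p from 0.75 to 0.99).

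**Figure D3:**
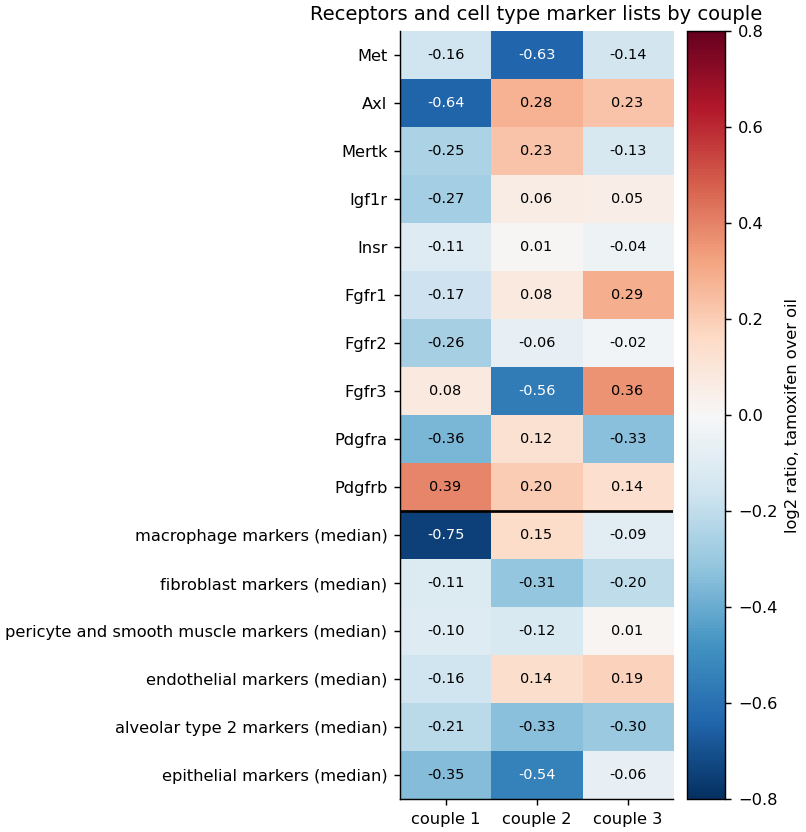
Log2 ratio of tamoxifen over oil in each couple (columns) for the 10 receptor genes and, under the black line, the median of each cell type marker list. Red is higher in tamoxifen and blue lower, and each cell gives its value. Mertk, Pdgfra, Insr and the macrophage list share their signs. Met and Fgfr3 have their lowest value in couple 2, as do the epithelial, fibroblast, alveolar type 2, and pericyte and smooth muscle lists.

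Probes of the same gene gave largely the same signs where several were well above background in all readings. That leaves out Fgfr1, Insr and Pdgfra, whose other probes were dimmer. In the 5 genes with several probes well above background in all readings (Met, Axl, Igf1r, Fgfr2 and Fgfr3), the other probes gave the sign of the brightest one in 16 of 18 couple values. The exceptions were a probe of Igf1r in couple 2, with -0.09 against 0.06 for the brightest, and the Fgfr3 probe in couple 3, with -0.005 against 0.36. The spread between couples for Axl, Met and Fgfr3 was thus read in part at a second place of each transcript. Couples differed more than dye orientations did across the array: the paired dye-swap arrays correlated across genes at r of 0.76, 0.77 and 0.79, and the couples with each other at 0.17, 0.12 and -0.02, where genes are not independent replicates.

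**Figure D4:**
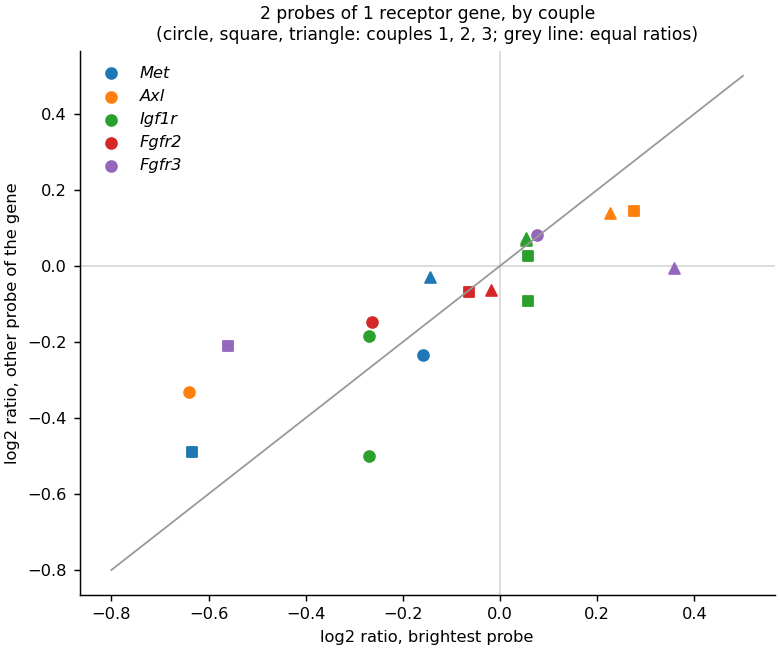
Log2 ratio of tamoxifen over oil of the brightest probe of a gene (x axis) against that of another probe of the same gene (y axis), for the 5 genes with several probes well above background in all readings. Symbols are couples and colours genes, and the grey line marks equal ratios. The 18 points run from lower left to upper right, with the couple 3 point of Fgfr3 farthest to the right at a second-probe value near 0.

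Genes that act around these receptors were read from lists of ligands, co-receptors, adaptors, inhibitors and related kinases. In each list 0 genes were called in either direction at an adjusted p of 0.05 in limma, and the lowest adjusted p was 0.69. Of the ligands, 14 of 19 were tested, 6 above and 8 below 0, with a median log2 ratio of -0.01. Of the ligand-binding proteins and co-receptors, 14 of 17 were tested, 8 above and 6 below 0, with a median of 0.05. Its highest and lowest members lay far apart: Gpc3, a glypican that binds growth factors, stood at 0.64 ± 0.40, and Sdc1, a syndecan co-receptor, at -0.30 ± 0.11 (SD, n = 3 each; limma adjusted p = 0.69 for both).

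Of the adaptors and effectors, 26 of 26 were tested, 10 above and 16 below 0, with a median of -0.03. Grb10, an adaptor that restrains insulin and IGF receptors, was highest at 0.30 ± 0.64 (SD, n = 3; limma adjusted p = 0.80), which rested on couple 1 and was -0.07 without it. Pik3ca, the catalytic subunit of PI3K, was lowest at -0.33 ± 0.23 (SD, n = 3; limma adjusted p = 0.69). It was lower in tamoxifen on 6 of 6 arrays, as were 7.21% of all tested genes. Of the phosphatases and ubiquitin ligases that limit these receptors, 12 of 12 were tested, 1 above 0 and 11 below, with a median of -0.08. Of all 20475 tested genes, 10492 lay below 0. The medians of this list in couples 1, 2 and 3 were -0.03, -0.13 and -0.01. Lrig1, a membrane protein that promotes receptor breakdown, was lowest at -0.61 ± 0.82 (couples 0.33, -1.04 and -1.14; limma adjusted p = 0.71), and Cbl, a ubiquitin ligase, was the single gene above 0, at 0.07 ± 0.10 (SD, n = 3; limma adjusted p = 0.87).

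Among other receptor tyrosine kinases, 28 of 35 were tested, 15 above and 13 below 0, with a median of 0.003. The highest was Fgfr4 at 0.51 ± 0.89 (couples 0.51, 1.40 and -0.37; limma adjusted p = 0.76) and the lowest Ros1 at -0.24 ± 0.33 (couples -0.62, -0.02 and -0.10; limma adjusted p = 0.74). Each rested on a single couple, as Fgfr4 was 0.07 without couple 2 and Ros1 -0.06 without couple 1.

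**Figure D5:**
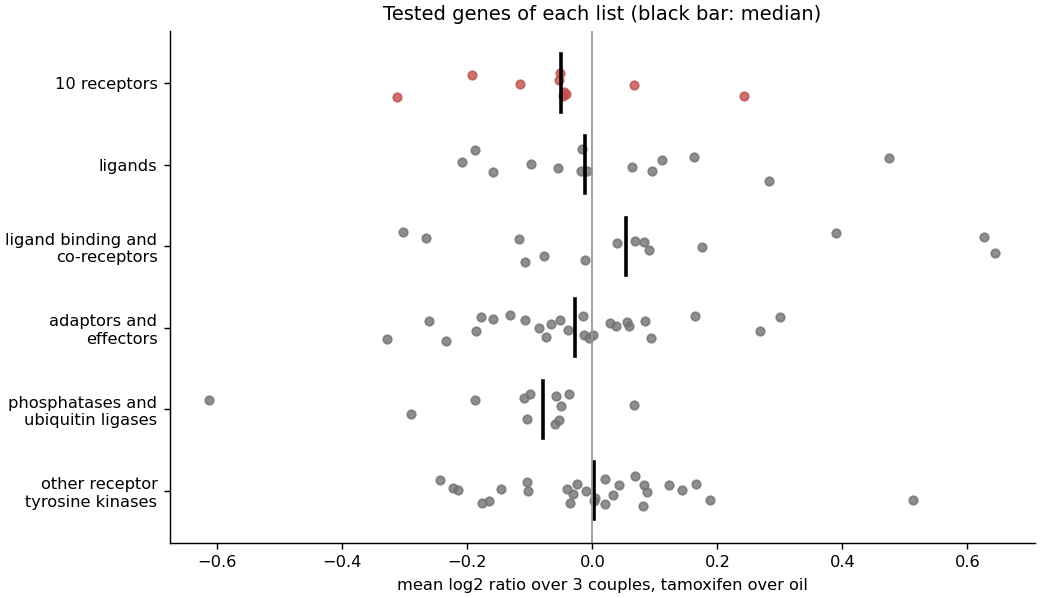
Mean log2 ratio of tamoxifen over oil (x axis) of every tested gene in the 10 receptors (red) and in the lists of related genes (grey). Each point is 1 gene, its height within a row is arbitrary, and black bars are medians. The medians lie between -0.08 and 0.05.

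Levels across the 6 samples were compared with those of other tested genes for Met and Pdgfra, the members with the widest range (0.90 and 0.81 log2 units), as a description over 6 samples that share arrays. Among genes that ranged at least as widely, those most like Met were Tmem163, Npc1 and Tgfb1i1, with a Pearson r of 0.986, 0.978 and 0.953. Those most like Pdgfra were Itm2a, Fam167a and Cdkn2a, with r of 0.998, 0.986 and 0.985. Itm2a spanned 3.46 log2 units over the same samples, in the order of Pdgfra, with tamoxifen sample 1 lowest and oil sample 3 highest.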

How the data were processed

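The deposited scanner files hold, per the file headers, the mean foreground and median background intensity of each spot in Cy3 and Cy5, flags for spots well above background or outlying, and a log10 ratio made by the scanner software. The submitters' processing notes name the software as Agilent Feature Extraction, version 12.0.3.1. The deposited series table gives log2 of Cy5 over Cy3, whose slope against the log10 ratio was 3.32, and was used as an alternative. Its column medians for couples 1, 2 and 3 were 0.14, -0.14 and -0.06 on the arrays where Cy5 held tamoxifen, and 0.13, -0.15 and -0.01 where Cy5 held oil. Its scale and direction followed from that slope, and it had no centring beyond the software's own.

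Intensities were corrected by normexp (offset 50) on all 62976 spots in limma 3.58.1 under R 4.3.3 and loess-normalized within arrays, with 3671 control spots at weight 0 and outlier spots left out (89 to 132 per array; 0 saturated). The offset pulls ratios of dim probes toward 0. The 56605 probes carried 36870 gene names, and the brightest probe stood for a gene. A gene entered the test when, for tamoxifen or for oil, 2 couples or more had it well above background under both dyes, which left 20475 genes after 2 with a missing spot were dropped. Arrays were turned to tamoxifen over oil, the dye-swapped arrays of a couple were averaged, and the 3 couples were tested against 0, two-sided, with lmFit and eBayes; p-values were adjusted by Benjamini-Hochberg. With 3 couples an exact sign-flip test could not go below p = 0.25, so none is given. Levels per sample are log2 signals after loess and Aquantile, averaged over both dyes. Intervals are 95% from limma's moderated statistic. All arrays were on 1 slide in 1 scan, so no batch was tested.

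The members, the lists and the markers were chosen with earlier results of these data known. Named genes are every member, its ligands, the highest and lowest tested gene of each list, and, for the 2 members of widest range, the 3 genes with the highest r whose own range was at least as wide. Figures were drawn with matplotlib 3.10.9. Probe sequences are those in the scanner files, at mm9 positions.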

Additional observations from a re-analysis of the deposited data

How the results depend on the processing

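Of the 10 receptors 0 were called under each of the 15 alternatives. Across the array, the count of genes called moved from 0 to 56 with the couple as a replicate block over 6 arrays, to 9 with that block and a dye term (chosen after seeing the data) and to 1 with channels apart, and was 0 under the other 12. The shared arrays pair the samples, and the couple means already use that pairing; the blocked fit changed no call among the receptors, and in this balanced layout it cannot move a mean ratio. The receptors' median log2 ratio, -0.049, turned to 0.016 when couple 1 was left out, and became -0.125 when couple 2 and -0.114 when couple 3 was left out. Met, Fgfr2, Pdgfra and Pdgfrb, 4 receptors, kept their sign throughout, with ranges of -0.40 to -0.15, -0.16 to -0.04, -0.35 to -0.09 and 0.17 to 0.29. For the 10 receptors, 140 of 150 values kept their sign and 10 reversed. Reversed with median centring were Axl (0.027) and Pdgfb (0.017). On arrays with tamoxifen in Cy3 alone, Igf1r (0.029), Fgfr1 (-0.044), Fgfr3 (0.046), Cbl (-0.096) and Hgf (0.013) reversed. On arrays with tamoxifen in Cy5 alone, Insr (0.018), Pros1 (-0.012), Fgf20 (0.073), Pdgfb (0.063) and Pdgfc (0.211) reversed. Pdgfc was also 0.001 with the scanner software's ratio and 0.001 with the deposited table. Leaving out each couple in turn gave a sign change in Axl (-0.207 to 0.251), Mertk (-0.193 to 0.048), Igf1r (-0.109 to 0.055), Fgfr1 (-0.045 to 0.185), Fgfr3 (-0.242 to 0.218), Grb10 (-0.067 to 0.511), Hgf (-0.145 to 0.022), Gas6 (-0.460 to 0.143), Pros1 (-0.063 to 0.146), Fgf1 (-0.085 to 0.388), Fgf2 (-0.385 to 0.068), Fgf9 (-0.501 to 0.769), Fgf20 (-0.057 to 0.023), Pdgfb (-0.240 to 0.128) and Pdgfc (-0.097 to 0.138). The cause of these reversals was not tested. Those with 1 dye orientation alone or without a couple used fewer arrays. Those with median centring, the scanner software's ratio or the deposited table used all 6. Sizes moved without a change of sign as well. The scanner software's ratio and the deposited table both gave -0.284 for Hgf (-0.055 with normexp and loess), -0.651 for Fgf2 (-0.188), -0.456 for Fgf7 (-0.160), 0.448 for Fgf9 (0.111), 0.217 for Pdgfd (0.096) and 0.539 for Grb10 (0.300). The mean of all probes gave 0.334 for Gpc3 (0.645 for its brightest probe) and -0.091 for Pdgfra (-0.192). Signal over background limits the dim probes, among them Hgf, Fgf2 and Fgf7.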
